A study of Mus musculus with 6 samples.

Results

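The genes described here were 10 markers of the bile duct lining and of mucous secretion, measured in mouse liver by RNA-Seq. They were chosen by name, with earlier results of these data known, and all 10 were found among the 47232 gene names used. The duct markers were the keratins Krt7 and Krt19, the adhesion molecule Epcam, the transcription factor Sox9, the secreted phosphoprotein Spp1 (osteopontin) and the chloride channel Cftr. The others were the trefoil factors Tff1, Tff2 and Tff3 and the membrane mucin Muc1. The livers came from 3 laboratory mice of the inbred C57BL/6 background, all male, and from 3 wild-caught mice, 1 male (wild mouse 1) and 2 females (wild mice 2 and 3). The laboratory mice were bought from a breeder and killed on arrival, whereas the wild mice were trapped as adults at sites in New South Wales and then kept under standard husbandry for some months. Wild mouse 3 came from another site than wild mice 1 and 2. Strain, source, housing and, in part, sex differed together between the groups and cannot be told apart.

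Cholangiocytes line the bile ducts and are a small minority of the cells in a liver. They carry simple-epithelial keratins that hepatocytes lack, secrete bicarbonate and chloride into bile, and make osteopontin and small amounts of mucin. Trefoil factors are short secreted peptides held in shape by disulphide bonds between cysteines. In the gut they are secreted with mucins by gastric mucous cells and goblet cells, and Tff3 is also made by the bile duct lining. Since whole pieces of liver were sequenced, the number of duct cells, the RNA per duct cell and RNA from other cells cannot be told apart below.

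The 3 trefoil factor genes lie next to each other on chromosome 17, on the minus strand of GRCm38: Tff3 at chr17:31125306-31129611, Tff2 at chr17:31141062-31144282 and Tff1 at chr17:31161395-31165060. The protein-coding sequences of Tff3 and Tff1 are shown because these genes carried the largest differences among the 10. They were taken from the GENCODE M21 transcripts Tff3-201 (coding part chr17:31125483-31129576, 3 exons) and Tff1-201 (coding part chr17:31161577-31165020, 3 exons), and capitals mark the in-frame cysteine codons.
Tff3: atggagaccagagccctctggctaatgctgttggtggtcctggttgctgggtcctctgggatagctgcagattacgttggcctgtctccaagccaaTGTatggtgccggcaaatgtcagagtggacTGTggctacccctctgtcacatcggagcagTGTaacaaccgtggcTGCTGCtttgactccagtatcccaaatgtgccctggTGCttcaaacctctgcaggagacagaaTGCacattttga
Tff1: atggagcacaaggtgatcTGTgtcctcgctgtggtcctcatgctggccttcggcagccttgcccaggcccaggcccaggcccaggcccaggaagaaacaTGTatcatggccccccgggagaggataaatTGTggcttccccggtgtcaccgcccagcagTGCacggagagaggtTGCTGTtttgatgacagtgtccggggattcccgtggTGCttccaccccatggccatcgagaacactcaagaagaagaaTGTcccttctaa

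The Tff3 coding sequence has 246 bases with 7 cysteine codons, and that of Tff1 has 264 bases with 8. Both hold the adjacent pair of cysteine codons (TGCTGC in Tff3, TGCTGT in Tff1) in the middle of the trefoil domain. Tff2 codes for a longer peptide with 14 cysteine codons in 390 bases. Aligned coding sequences were identical at 60.1% of bases for Tff1 and Tff3, 69.8% for Tff1 and Tff2 and 71.1% for Tff2 and Tff3. The longest run of bases shared between any 2 of the 3 transcripts was 14, much shorter than the sequenced reads of 100 bases, so that reads of one trefoil gene had no exact match of their length in the transcript of another.

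Levels are given as FPKM, the fragments assigned to a gene scaled by the length of its transcript and by the size of the library, which may be compared between genes. For testing, the zFPKM was used, which is the log2 FPKM of a gene less the mode of all genes in that mouse, divided by a mouse-specific SD. On the log2 FPKM scale that mode ranged over 0.491 to 2.12 among the laboratory mice and over 1.31 to 2.51 among the wild ones, so that a given zFPKM stood for another FPKM in each mouse. Differences in zFPKM are laboratory minus wild, with values under -3 set to -3, and p-values are from limma with Benjamini-Hochberg adjustment over all 18619 genes tested. A gene was called at an adjusted p under 0.05. In this fit the spread came wholly from the trend of spread on level over all genes, and a gene's own scatter between the mice had no weight, so the fit without the trend is given beside the calls. A fit with sex as a covariate was also made. Since all laboratory mice were male, its difference is that between them and wild mouse 1, the only wild male. Differences and calls from that fit therefore rest on a single wild mouse. Deposited tables gave no read counts, and for 5 mice the number of reads behind a value was estimated from the bounds on FPKM. Laboratory mouse 1 has no such bounds, so its depth is unknown. Its values also came as 49995 entries, none with a repeated name, against 52188 entries in each other mouse, 4930 of them with one. The reason for this difference is not known.

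**Figure D1:**
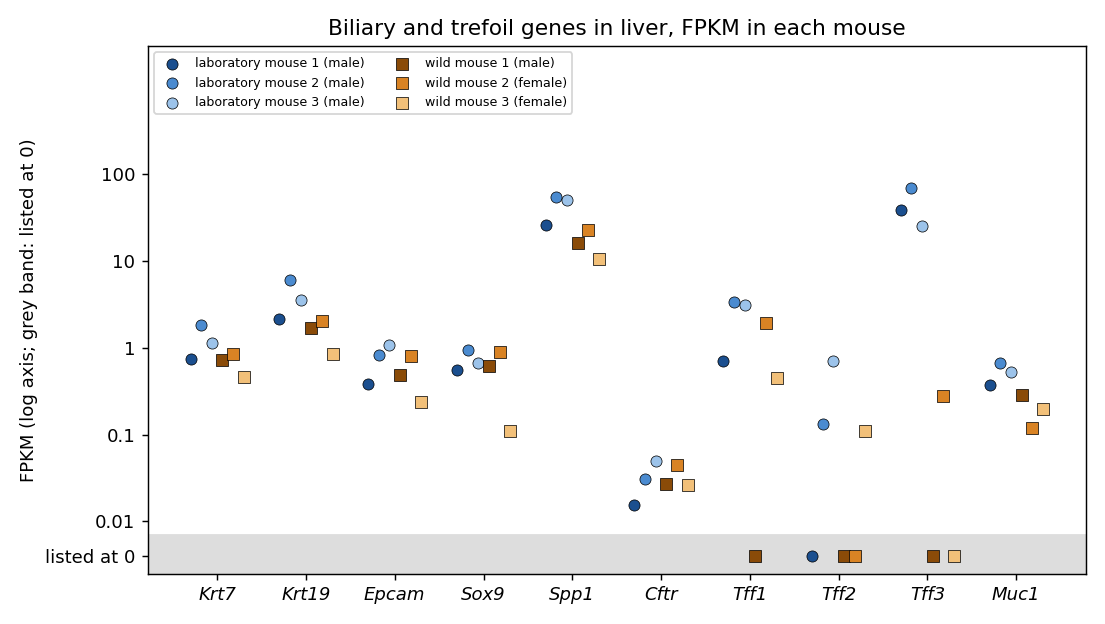
FPKM of the 10 genes (log axis) in each of the 3 laboratory mice (blue circles) and 3 wild mice (orange and brown squares), with values listed at 0 in the grey band. Tff3 was at 25.4 to 68.9 in the laboratory mice and at 0 or 0.281 in the wild mice, and Spp1 and Muc1 were the other genes without overlap on both scales used.

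All 10 genes passed the filter on low values, 7 of them with a zFPKM above -3 in all 6 mice. Tff3, Spp1 and Tff1 were called higher in the laboratory mice, and none of the 10 was called lower. Over all genes tested, 7.17% were called higher in the laboratory mice and 7.28% lower. These shares are the background for the calls counted in this fit in every list below. In each of the 10 genes the mean zFPKM was higher in the laboratory mice, which was so for 50.4% of all genes tested. The median difference of the 10 genes was 0.712 zFPKM, and that of all genes was 0.00500. Every laboratory mouse lay above every wild mouse in zFPKM for 3 of the 10 genes (Tff3, Spp1 and Muc1), as it did for 14.2% of all genes. Because the 10 genes were chosen with earlier results of these data known, no conclusion about them as a set is drawn from these shares.

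Tff3, the trefoil factor of goblet cells and of bile duct epithelium, differed most. Its FPKM was 38.8, 68.9 and 25.4 in laboratory mice 1, 2 and 3, whereas wild mice 1, 2 and 3 were listed at 0, 0.281 and 0. In the laboratory livers Tff3 therefore stood at the level of Spp1, between the 92.2 and the 96.0 percentile of the genes with an FPKM above 0. The laboratory values rested on about 359 reads in mouse 2 and 122 in mouse 3, and the value of wild mouse 2 on about 2 reads. In wild mouse 2, 3 reads of Tff3 would have given an FPKM of 0.429, the limit that a count of 0 allows, and its value lay under that limit. The difference was 3.77 zFPKM (SE 0.317, adjusted p = 9.45e-30 with limma, 3 against 3 mice). Tff3 passed the filter through the laboratory mice, since only 1 wild mouse was above the floor. Leaving out any 1 mouse kept the difference between 3.44 and 4.43. With sex as a covariate it was 4.43, which compares the laboratory mice with wild mouse 1 alone. Without limma's trend of spread on level, where the gene's own spread counts, the adjusted p was 0.0110. That spread included 2 equal wild values at the floor. Only without the filter on low values was the call lost (adjusted p = 0.338). No fold change is given because 2 of the wild mice were listed at 0. Wild mouse 1 was the only male of the wild group, and its Tff3 was at 0 while the 3 laboratory males were at 25.4 or more.

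Tff1, which in the stomach is made by the surface mucous cells, was much lower and more variable. Its FPKM was 0.709, 3.37 and 3.08 in laboratory mice 1, 2 and 3, against 0, 1.95 and 0.452 in the wild ones, so that wild mouse 2 lay above laboratory mouse 1. In zFPKM, wild mouse 2 (-0.11) lay above both laboratory mouse 1 (-0.32) and laboratory mouse 3 (-0.20). About 17 and 14 reads stood behind laboratory mice 2 and 3, against 13 and 2 behind wild mice 2 and 3. The difference of 1.31 zFPKM (SE 0.362, adjusted p = 0.00430 with limma) was called, yet the SD within the wild mice alone was 1.48. It rested largely on wild mouse 1, without which the difference was 0.49 (adjusted p = 0.270). Leaving out laboratory mouse 2 or 3 also ended the call (adjusted p = 0.139 and 0.0529), as did a fit without the trend (adjusted p = 0.302), and it held in 6 of 16 alternatives. A further entry, LOC102631757, covers 1658 of the 3666 bases of the Tff1 locus and had an FPKM of 1.95, 3.29 and 4.88 against 0, 2.54 and 2.40. The strand used in counting is not given in the sources used here, so reads of Tff1 and of this entry may have been shared, and the Tff1 values are uncertain.

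Tff2, made by gastric neck and Brunner's gland cells, was close to the limit of detection. It was listed at 0, 0.131 and 0.711 FPKM in the laboratory mice and at 0, 0 and 0.111 in the wild mice. The values above 0 in laboratory mice 2 and 3 and wild mouse 3 came from about 1, 5 and 1 reads. A difference (0.82 zFPKM, SE 0.463, adjusted p = 0.261 with limma) was not detectable at this depth. Only Tff3 of the trefoil genes therefore separated the groups in every mouse.

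Spp1 encodes osteopontin, a secreted ligand of integrins and CD44 that in healthy liver is made mainly by duct cells. Its FPKM was 25.9, 55.0 and 51.0 in the laboratory livers, against 16.3, 23.0 and 10.6 in the wild. The groups did not overlap, although laboratory mouse 1 (25.9) and wild mouse 2 (23.0) were close. The means were 44.0 ± 15.8 and 16.6 ± 6.22 (SD, n = 3 each), a ratio of 2.65. In zFPKM the difference was 0.75 (SE 0.152, adjusted p = 2.98e-05 with limma), and it stayed between 0.66 and 0.90 when any 1 mouse was left out. Spp1 was called in 15 of 17 alternatives, the exceptions being the fit without the trend (adjusted p = 0.103) and that without the filter (adjusted p = 0.450). With between 272 and 873 reads in the 5 mice with bounds, it was the most deeply measured of the 10 genes across both groups.

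**Figure D2:**
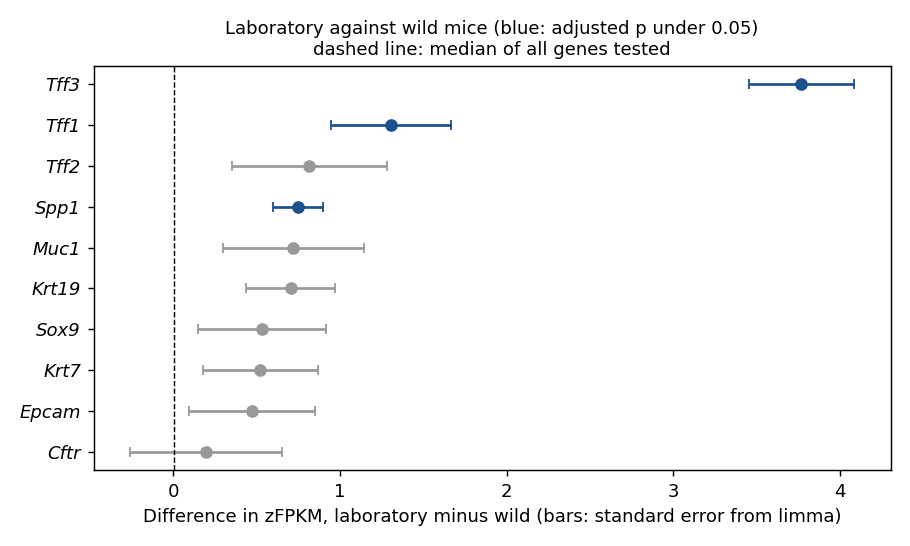
Difference in mean zFPKM, laboratory minus wild, for each of the 10 genes, with the standard error from limma as bars and genes called at an adjusted p under 0.05 in blue. All 10 points lay to the right of the dashed line, the median of all genes tested (0.00500), and Tff3 stood apart at 3.77.

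The keratins pair in the intermediate filaments of simple and duct epithelia. Krt19 was at 2.12, 5.96 and 3.60 FPKM in the laboratory mice and at 1.67, 2.06 and 0.842 in the wild mice. These FPKM did not overlap, but the zFPKM did, with laboratory mouse 3 at -0.11 and wild mouse 2 at -0.09. The Krt19 difference of 0.70 zFPKM (SE 0.267) fell just short of the threshold (adjusted p = 0.0557 with limma) and passed it in 5 of 17 alternatives. Krt7, its usual companion in ducts, was at 0.750, 1.81 and 1.15 FPKM against 0.718, 0.850 and 0.464. Only laboratory mice 2 and 3 lay above all wild mice in FPKM, and only laboratory mice 1 and 2 in zFPKM. The Krt7 difference was 0.52 zFPKM (SE 0.343, adjusted p = 0.354 with limma).

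Epcam and Sox9 mark duct cells and the progenitor-like cells at the ends of the smallest ducts. Epcam was at 0.380, 0.836 and 1.07 FPKM in the laboratory mice and at 0.489, 0.798 and 0.237 in the wild mice. In FPKM the groups overlapped, with laboratory mouse 1 under wild mice 1 and 2. In zFPKM they overlapped through laboratory mouse 3 (-0.80) and wild mouse 2 (-0.52) (difference 0.47 zFPKM, SE 0.379, adjusted p = 0.476 with limma). Sox9 was at 0.559, 0.952 and 0.671 FPKM against 0.616, 0.890 and 0.111. Here the wild group was spread widely, with wild mouse 3 at about 11 reads and wild mouse 2 at about 102. The Sox9 difference (0.53 zFPKM, SE 0.385, adjusted p = 0.416 with limma) was not called under any of 17 alternatives.

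Muc1, a transmembrane mucin of the apical surface of ducts, was at 0.369, 0.669 and 0.525 FPKM in the laboratory mice and at 0.283, 0.118 and 0.196 in the wild mice. The groups did not overlap, and the mean FPKM were 0.521 ± 0.150 and 0.199 ± 0.0824 (SD, n = 3 each). Between 6 and 29 reads stood behind each value in the 5 mice with bounds. In zFPKM the difference of 0.72 (SE 0.424) did not pass the test (adjusted p = 0.284 with limma), while 5 of 17 alternatives called it. Cftr, the chloride channel through which ducts drive fluid into bile, was the lowest of the duct markers. It was at 0.0154, 0.0307 and 0.050 FPKM against 0.0269, 0.0450 and 0.0261, each value in the 5 mice with bounds resting on about 4 to 8 reads. At this depth no difference in Cftr was detectable (0.20 zFPKM, SE 0.458, adjusted p = 0.844 with limma), and its sign turned on the log2 scales without equal medians, after quantile normalization and without wild mouse 1.

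Several of the 10 genes shared their order over the mice. Laboratory mouse 2 had the highest FPKM of all 6 mice for Krt7, Krt19, Sox9, Spp1, Tff1, Tff3 and Muc1. Wild mouse 3, a female and the only mouse from its site, had the lowest FPKM for Krt7, Krt19, Epcam, Sox9 and Spp1. The mean zFPKM of Krt7, Krt19, Epcam and Sox9 was -0.28, -0.01 and -0.69 for laboratory mice 1 to 3, against -1.07, -0.39 and -1.18 for wild mice 1 to 3, so that laboratory mouse 3 and wild mouse 2 overlapped.

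To set the secreted products against the duct markers of the same liver, each gene was divided by Krt7. The ratio of Tff3 to Krt7 was 51.7, 38.1 and 22.1 in laboratory livers against 0, 0.331 and 0 in wild ones. The ratio of Spp1 to Krt7 was 34.5, 30.4 and 44.5 against 22.7, 27.0 and 22.8, and that of Krt19 to Krt7 was 2.83, 3.30 and 3.13 against 2.32, 2.42 and 1.82, both without overlap. For Epcam, Sox9, Cftr, Tff1, Tff2 and Muc1 the ratios overlapped between groups. The share of all genes without overlap in their ratio to Krt7 was not computed. Taken on the zFPKM scale against the mean of Krt7, Krt19, Epcam and Sox9, Tff3 was at 1.82, 1.75 and 1.70 in the laboratory mice and at -1.93, -0.61 and -1.82 in the wild mice. The mean difference was 3.21, and the groups did not overlap. In wild mice 1 and 3 Tff3 was at the floor of -3, so this size depended on the floor. For Spp1 the same difference was 0.19 and for Tff1 it was 0.75, each with overlap between the groups. For Spp1 the values were 1.63, 1.64 and 2.10 in the laboratory and 1.63, 1.42 and 1.75 in the wild mice.

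**Figure D3:**
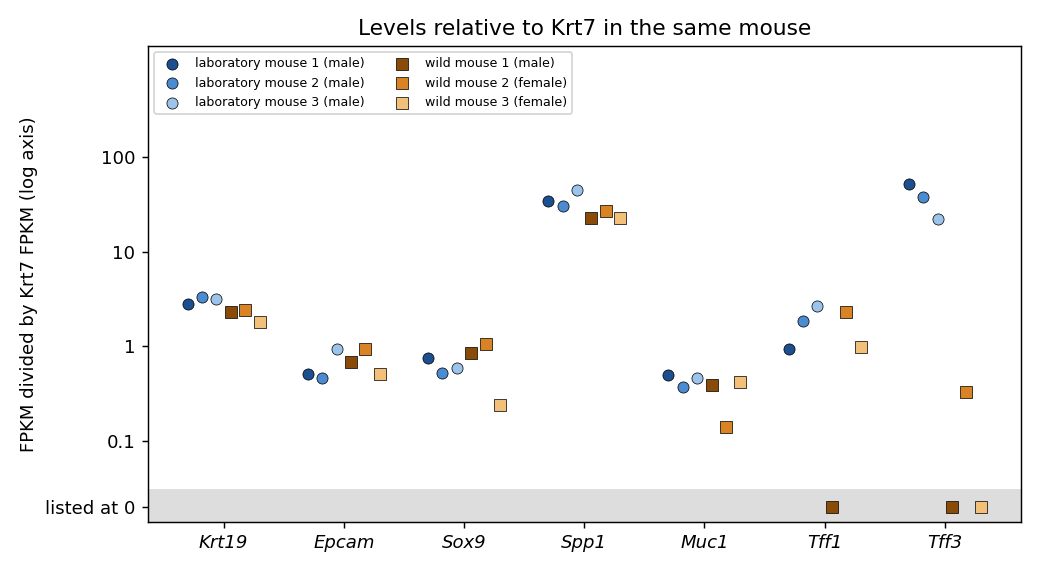
FPKM of 7 of the genes divided by the FPKM of Krt7 in the same mouse (log axis), with blue circles for laboratory and orange and brown squares for wild mice and ratios of 0 in the grey band. The Tff3 ratios lay between 22.1 and 51.7 in the laboratory mice and at 0 or 0.331 in the wild mice, while those of Epcam, Sox9, Muc1 and Tff1 overlapped.

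How many of the 10 genes were called depended on the scale. On log2(FPKM + 0.1) the median over all genes was 0.47 lower in the laboratory mice, and 3 of the 10 were called higher (Tff3, Spp1 and Muc1). On that scale 8589 of all 18619 genes were called in either direction, and the share called higher alone was not computed. With the medians of the mice made equal on that scale, 9 of the 10 were called higher (all but Sox9), against 28.7% of all genes. Without the trend only Tff3 was called, beside 795 of all 18619 genes in either direction. Tff3 was the only gene of the 10 called under each of these 3 settings and in the zFPKM fit together.

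Genes around the trefoil cluster were given beside it in the same way. Of 12 other entries whose locus lies within 250 kb of the cluster, 7 passed the filter. The nearest tested gene below Tff3, the cholesterol exporter Abcg1, was at 0.567, 0.417 and 0.444 FPKM against 0.190, 0.764 and 1.45 (0.13 zFPKM, adjusted p = 0.881 with limma). On the other side, Ubash3a (0.02), the ciliary gene Rsph1 (1.07, adjusted p = 0.114 with limma) and the sugar phosphate transporter Slc37a1 (0.22) were not called, nor was Dnah8 (-0.36) farther below. Besides LOC102631757 (1.23, adjusted p = 0.00163 with limma, 0.26 without wild mouse 1, not called without laboratory mouse 2 or 3, and with an adjusted p of 0.373 without the trend), the phosphodiesterase Pde9a was called higher (1.87, adjusted p = 1.60e-09 with limma). Pde9a was at 7.73, 9.55 and 12.1 FPKM in the laboratory males and 6.36 in the wild male, whereas the wild females had 0.297 and 0.0228. With sex as a covariate, and so against wild mouse 1 alone, its difference was 0.67. The part of sex in these values was not tested, since there was 1 wild male. The call of Pde9a was lost without the trend (adjusted p = 0.113). Tff3 was at 0 FPKM in the wild male and at 0.281 and 0 in the wild females. A longer list of genes of the region, reaching past these 250 kb, had 11 tested genes with a median of 0.22 zFPKM. Of these, 3 were called higher and 1 lower, against 7.17% and 7.28% over all genes. Besides Pde9a the genes called were Wdr4 (0.88, adjusted p = 0.00763 with limma, 0.0471 without the trend), Ndufv3, of mitochondrial complex I (0.69, adjusted p = 4.81e-09 with limma, 0.0761 without the trend), and, lower, the transsulphuration enzyme Cbs (-0.55, adjusted p = 0.000105 with limma, 0.132 without the trend). Wdr4 was not called without laboratory mouse 1 or 2.

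**Figure D4:**
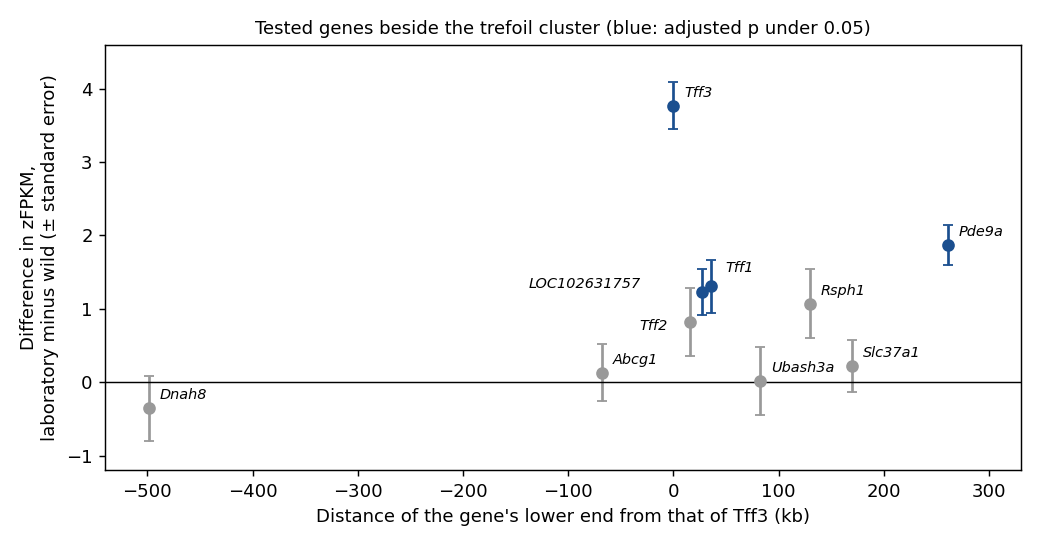
Difference in zFPKM, laboratory minus wild, with its standard error, for the 10 tested genes in and beside the trefoil cluster against the distance of their lower end from that of Tff3 in kb, with genes at an adjusted p under 0.05 in blue. Tff3 (3.77) lay between Abcg1 (0.13) and Tff2 (0.82), neither of which was called.

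Few further markers of the bile duct lining were called. Of 28 other markers found, 27 were tested, 2 were called higher in the laboratory mice and none lower (7.17% and 7.28% over all genes), and their median difference was 0.14 zFPKM against 0.71 for the 10 genes. With a count in either direction of 8 on log2(FPKM + 0.1) and 13 with equal medians, this number depended on the scale. The 2 were the tight junction protein Cldn3 (138, 141 and 120 FPKM against 93.1, 83.4 and 85.4, 0.46 zFPKM, adjusted p = 0.00224 with limma) and the keratin Krt18, which hepatocytes make too (141, 165 and 157 FPKM against 161, 140 and 94.3, 0.35 zFPKM, adjusted p = 0.0252 with limma). Both lay far above Krt7 (0.464 to 1.81 FPKM) in every liver, and the cells that Cldn3 came from were not tested. Krt18 overlapped between the groups and lost its call without laboratory mouse 1 or 2 or wild mouse 2 or 3, and Cldn3 lost its call without laboratory mouse 1. Neither was called without the trend (adjusted p = 0.323 for Krt18 and 0.205 for Cldn3 with limma). With sex as a covariate, and so against wild mouse 1 alone, the Krt18 difference was 0.33. Some markers that were not called were lower in FPKM in every laboratory mouse. Among them were Krt8 (55.4, 80.3 and 47.4 against 178, 175 and 109) and Slc4a2 (2.25, 3.01 and 4.76 against 8.26, 11.3 and 9.63). In zFPKM their differences were -0.22 and -0.30. Every laboratory mouse lay above every wild mouse in zFPKM for 3 of the 27, against 14.2% of all genes, and below for 1. The share of all genes below was not computed. Among 20 transcription factors and Notch and YAP pathway genes of the duct, which include partners of Sox9, none was called and the median was -0.05. Their summed FPKM was 108 to 142 in the laboratory and 188 to 273 in the wild mice, largely from Hnf4a. Ccn2 (0.513, 0.983 and 0.905 against 4.78, 4.64 and 4.03 FPKM) was lower in every laboratory mouse. In zFPKM every laboratory mouse lay below every wild mouse for 2 of the 20 and above for none. On log2(FPKM + 0.1) the median of all genes was also lower in the laboratory mice. By mean zFPKM over the 6 mice, the lowest of this list was the YAP target Ankrd1 (mean FPKM 0.261 in the laboratory and 0.0733 in the wild mice) and the highest was the hepatocyte factor Hnf4a (73.4 and 136.9).

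Receptors through which osteopontin and trefoil peptides act were tested in 16 genes, with a median difference of -0.15 zFPKM. Of these, 1 was called higher and 1 lower, against 7.17% and 7.28% over all genes. Egfr was called higher at 63.2, 63.2 and 43.4 FPKM against 32.6, 20.6 and 12.9 (0.74 zFPKM, adjusted p = 1.42e-05 with limma). The Egfr call was lost without the trend (adjusted p = 0.103). With sex as a covariate, and so against wild mouse 1 alone, the Egfr difference was 0.66. Itgb1, a subunit of integrins that bind osteopontin, was called lower at 9.85, 10.8 and 8.32 FPKM against 38.4, 44.1 and 32.8 (-0.45 zFPKM, adjusted p = 0.0416 with limma). The Itgb1 call was lost when any of the laboratory mice or wild mouse 2 or 3 was left out, and without the trend (adjusted p = 0.300). With sex as a covariate, and so against wild mouse 1 alone, the Itgb1 difference was -0.31. Lingo2, described as a Tff3 receptor, was at 0.0232 FPKM or less in every mouse.

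Markers of the mucous cells that secrete trefoil factors in the gut were nearly absent. Of 23 goblet cell, mucin and gastric mucous genes, 14 were listed at 0 in all 6 mice and 4 were tested. None of these was called higher alongside Tff3. The polymeric immunoglobulin receptor Pigr, which carries IgA into bile, was called lower in the laboratory mice (79.04, 65.1 and 46.1 FPKM against 507, 701 and 694, -0.91 zFPKM, adjusted p = 7.74e-14 with limma, 0.0585 without the trend). The gastric mucin Muc6 was at 0.0308 FPKM or less throughout. Stomach and intestinal epithelial genes were at 0 in all mice in 6 of 11 cases, none of the 4 tested was called, and their summed FPKM was 29.3 to 41.3 in the laboratory and 25.3 to 44.4 in the wild mice, nearly all of it from Fabp2. The parietal cell pump Atp4a, at 0.115 to 0.257 FPKM against 0.0122 to 0.0378, came nearest (adjusted p = 0.0653 with limma). Acinar pancreas genes were at 0 in all mice in 5 of 13 cases, with a summed FPKM of 6.27 to 10.2 against 3.29 to 19.0, mostly from Cela1. Of 3 tested, 1 was called higher, against 7.17% over all genes. It was Ctrl, at 0.0694, 0.347 and 1.05 FPKM against 0, 0.0509 and 0.0590 (adjusted p = 0.0432 with limma). When single mice were left out, Ctrl was called only without wild mouse 2, and it was not called without the trend (adjusted p = 0.0890). Laboratory mouse 3 was highest for Ctrl and lowest of its group for Tff3.

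Spp1 is also made by macrophages and Muc1 by mesothelium, and the markers of other liver cells are given beside them for that reason. Of 9 macrophage genes, none was called higher and Gpnmb was called lower (0, 0.0131 and 0.0283 FPKM against 0.0343, 0.804 and 6.21, a call lost without wild mouse 2 or 3, and at 0.00866 zFPKM with sex as a covariate), and the summed FPKM was 46.0 to 53.5 in the laboratory and 34.7 to 118 in the wild mice. None of 7 mesothelial genes was called (sums of 1.25 to 2.65 against 2.21 to 8.88). Among 7 stellate cell genes Col1a1 (0.83 zFPKM) and Col3a1 (0.70) were called higher and Rgs5 (-0.76) lower, against 7.17% and 7.28% over all genes. Their sums were 15.6 to 23.9 against 22.3 to 38.4 over the 7 genes. The calls of Col1a1 and Col3a1 were lost without laboratory mouse 1 or 2 or wild mouse 1 (and that of Col1a1 also without wild mouse 3), and the call of Rgs5 without wild mouse 2 or 3. With sex as a covariate, and so against wild mouse 1 alone, the Rgs5 difference was -0.49. None of the macrophage and stellate genes named was called without the trend (adjusted p = 0.159 to 0.236). Of 8 hepatocyte genes, 3 were called higher (Apoa1, Ttr and Serpina1a) and 2 lower (Cyp2e1 and Tat), against 7.17% and 7.28% over all genes. However, after quantile normalization Apoa1 and Ttr turned to -0.25 and -0.29, and without the trend only Cyp2e1 was called (adjusted p = 0.0440). The sums of the 8 genes were 31532 to 44747 against 26963 to 31023. The hepatocyte markers were thus the most abundant of all lists in each of the 6 livers. The part of these cell types in the values of the 10 genes was not tested.

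**Figure D5:**
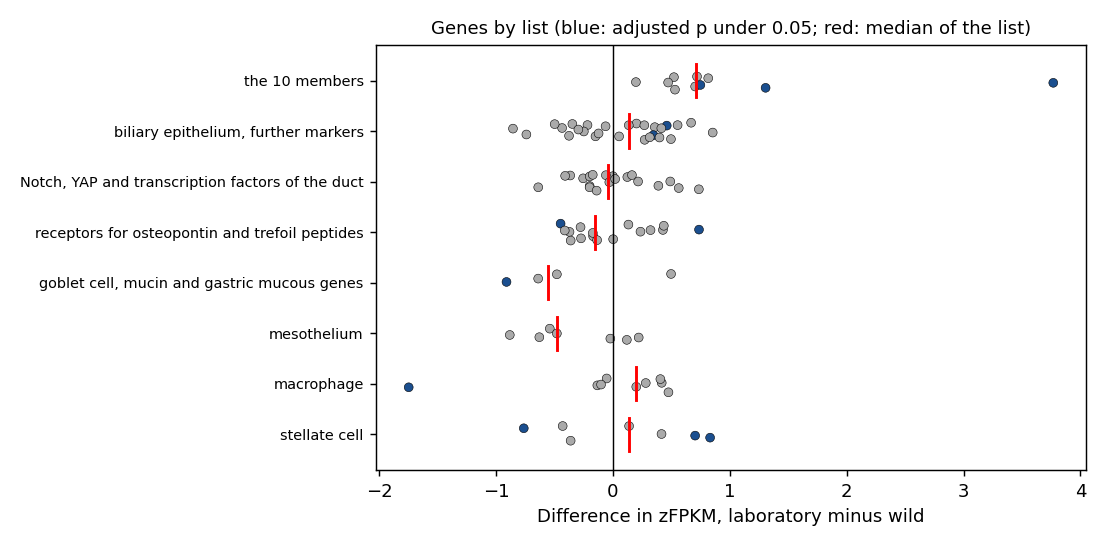
Difference in zFPKM, laboratory minus wild, for each tested gene of the 10 members and of 7 other gene lists, with genes at an adjusted p under 0.05 in blue and a red bar at the median of each list. The median was 0.71 for the 10 members, 0.14 for the further biliary markers and -0.05 for the Notch, YAP and transcription factor genes.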

How the data were processed

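RNA was taken from frozen liver of 3 laboratory and 3 wild mice, 1 library each. Stranded mRNA libraries gave single-end reads 100 bases long. To make the files, the authors used kalign against the repeat-masked RefSeq GRCm38.p6 and computed the deposited FPKM with the Tuxedo pipeline. The deposited zFPKM is a score the authors made from log2 FPKM with the R package zFPKM, and the submitters' processing notes also name Picard. Tables of 5 mice hold Cufflinks' bounds on FPKM.

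Of 47256 names listed once in every mouse, 24 with a failed estimate were left out. zFPKM under -3 was set to -3, genes above -3 in at least 3 of 6 mice were kept (18619), and limma 3.58.1 (R 4.3.3; lmFit, eBayes with trend, Benjamini-Hochberg adjustment over all genes tested) compared the groups. With the trend, limma's prior degrees of freedom were infinite, so each p rests on the fitted spread of genes of like level and the gene's own scatter had no weight. Without the trend they were 3.74, beside 4 residual ones, and the gene's own scatter counted. The script was tested on simulated data. Replicate numbers are names only. Each mouse gave 1 sample.

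Reads behind an FPKM were estimated as the square of 2 × FPKM / (upper bound − FPKM), rounded. Of 45 estimates above 0 for the 10 genes, 18 were within 0.05 of a whole number. For genes with several transcripts or overlaps they are approximate. Python 3.11.15 with pandas 2.3.3 and Biopython 1.88 was used for the remaining steps. The 10 genes and the lists were chosen with earlier results of these data known. Named genes were the 10 members, the highest, the lowest and all called genes of each list (up to 6), loci within 250 kb of the trefoil cluster, and the 5 genes nearest in pattern to Tff3 and to Epcam. A gene that this rule names is not reported here. Alternatives varied the floor, the filter, the scale (log2 of FPKM with a pseudocount of 1 or 0.1, equal medians, quantile normalization), the trend, sex as a covariate, summed names and each mouse left out.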

Additional observations from a re-analysis of the deposited data

How the results depend on the processing

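Of the 10 genes, 3 were called, and between 2 and 4 when any 1 mouse was left out. This number was 1 with the filter set to all 6 mice (Tff1, Tff2 and Tff3 were then not tested), 0 without the filter, 9 on log2(FPKM + 0.1) with equal medians, 5 after quantile normalization, 5 with a median of 0 in each mouse and 1 without the trend. Over all genes, 2690 were called, and 1339 to 3001 without 1 mouse. The number was 23 without the filter, 8242 on log2(FPKM + 1), 8589 on log2(FPKM + 0.1), 8817 with equal medians, 7282 after quantile normalization, 5270 with a median of 0, 795 without the trend and 1374 with sex as a covariate. Of the further biliary markers 2 were called, and 0 to 4 without 1 mouse (all counts of calls here are in either direction). That number was 0 without the filter, 8 on log2(FPKM + 1), 8 on log2(FPKM + 0.1), 13 with equal medians, 6 after quantile normalization, 0 without the trend and 1 with sex as a covariate. The cause of these changes was not tested. Signs turned, among others, for Apoa1 (-0.25) and Ttr (-0.29) after quantile normalization, for Gpnmb with sex as a covariate (0.00866) and for Lingo2 with equal medians (0.67). Other named genes that were not called, such as Cftr and Hnf4a, also turned under some settings. The laboratory and wild groups were different animals, so there was nothing to pair.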

Other observations

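The tested genes whose zFPKM followed Tff3 most closely over the 6 mice, each centred on its own mean, were Gm17669 (root mean square difference 0.363), Cib3 (0.482), Snord15b (0.568), Inafm1 (0.672) and Gm12447 (0.700). Gm17669 was at 10.8, 10.0 and 9.65 FPKM in the laboratory mice and at 0, 0.0462 and 0 in the wild mice. Cib3 was at 6.72, 12.6 and 66.6 FPKM against 0, 0.159 and 0. Like Tff3, both were listed at 0 in wild mice 1 and 3 and were just above 0 in wild mouse 2. The genes nearest to Epcam were Prr15 (0.0732), C1qtnf2 (0.0879), Csrp3 (0.0901), Podn (0.108) and Wnt4 (0.111), all with a range of FPKM that overlapped between the groups. These likenesses rest on 6 mice and are descriptions.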
